A study of Homo sapiens with 6 samples.

Results

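The genes described here are 10 immediate early transcription factors, the AP-1 subunits FOS, FOSB, FOSL1, FOSL2, JUN, JUNB and JUND, the related factor ATF3, the zinc finger factor EGR1, and IER2, a nuclear regulator induced by the same signals. They were taken as a functional family, but with earlier results of these data known, as were the gene lists set beside them below. All 10 of them are among the 22411 genes that the arrays measured with a probe set annotated to 1 gene. A probe set is a group of probes read as 1 signal. RNA came from HCT-shSLBP, a line made from the colorectal carcinoma line HCT116 that, by its name, carries a short hairpin RNA against SLBP, the protein that histone mRNAs of the replicating cell need for processing at their end. One group is 3 cultures without treatment, and the other is 3 cultures given doxycycline at 2 µg/ml, the drug commonly used to switch such hairpins on, with 1 array per culture. How long the cells were exposed is not given in the sources used here, and no doxycycline culture of cells lacking the hairpin is among the samples, so drug and hairpin cannot be told apart.

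Immediate early genes are transcribed within minutes of a growth factor or stress signal from factors already present in the cell, and their mRNAs are short-lived. FOS and JUN proteins pair through a leucine zipper to form AP-1, which binds short DNA sites and acts on genes of proliferation, migration and matrix breakdown. JUN proteins can pair with each other, while FOS proteins need a partner such as JUN. In epithelial tumour cells with an active MAP kinase cascade, FOSL1 is known as the FOS family member that persists, since that cascade both induces it and stabilises its protein.

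Short promoter stretches are shown for the members whose promoter windows hold a site of the family's own factors or of the serum response factor, as the sequence context of those sites. Windows run from 250 bases before to 50 after a start site, as given by RefSeq on GRCh38.p14, and 9 of the 10 genes are in that table with 10 windows. FOSL1 is the gene that was not matched. Capitals mark the motif, and each is written 5' to 3' on the gene's strand. EGR1, chr5:138465344-138465435, plus strand, has a pair of CArG boxes, the sequence bound by serum response factor. JUND, chr19:18281785-18281852, minus strand, has a cyclic AMP response element, which ATF and CREB factors bind. JUN, chr1:58784077-58784144, minus strand, and ATF3, chr1:212565254-212565321, plus strand, have the AP-1 site variant known from the JUN promoter, through which JUN acts on its own gene. FOSL2, chr2:28392851-28392879, plus strand, has an AP-1 site just after its start.
EGR1: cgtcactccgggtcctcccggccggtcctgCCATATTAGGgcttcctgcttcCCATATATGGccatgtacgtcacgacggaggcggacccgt
JUND: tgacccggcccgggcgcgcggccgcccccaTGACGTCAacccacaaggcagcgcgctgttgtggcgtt
JUN: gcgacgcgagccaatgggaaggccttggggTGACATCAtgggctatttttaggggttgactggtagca
ATF3: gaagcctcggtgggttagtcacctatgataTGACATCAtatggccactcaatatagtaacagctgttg
FOSL2: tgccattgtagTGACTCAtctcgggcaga

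Each motif was searched on both strands, and none contains another. The AP-1 site TGACTCA was in 1 of the 10 member windows, that of FOSL2, and in 4.95% of all 35116 windows. The response element TGACGTCA was in that of JUND alone, against 1.85% of all windows, and the CArG box in that of EGR1 alone, against 1.29%. The EGR site GCGTGGGCG was in none of the member windows and in 0.795% of all. The variant TGACATCA, searched after these results were seen, was in 2 member windows, those of JUN and ATF3, and in 2.61% of all. A match is a run of letters and not a measured binding site, and no match says only that these letters are not in the window.

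Of the 10 genes, 1 rose and none fell in treated cultures by limma with an adjusted p under 0.05, the threshold behind "rose" and "fell" here. Over all genes 2.93% rose, 3.27% fell and 6.19% passed in either direction. FOSL1 was the gene that rose, by 28.3%. The means of 8 of the 10 were higher in treated cultures, against 41.8% of all genes, and the median log2 change of the 10 was 0.11, against -0.019 over all genes. At an unadjusted p under 0.05 by limma, 6 of the 10 were higher, where 9.85% of all genes were. None of the 10 was lower, where 2856 of all 22411 genes were, which is also the background for the lists below. The 3 treated arrays lay above all 3 untreated arrays in 7 of the 10, FOS, FOSB, FOSL1, FOSL2, JUN, ATF3 and IER2, against 12.5% of all genes. In none of the 10 did they lie below all untreated arrays, which happened in 16.7% of all genes. The largest change of the 10, that of FOSL1, ranked 190 from the top among all genes.

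**Figure D1:**
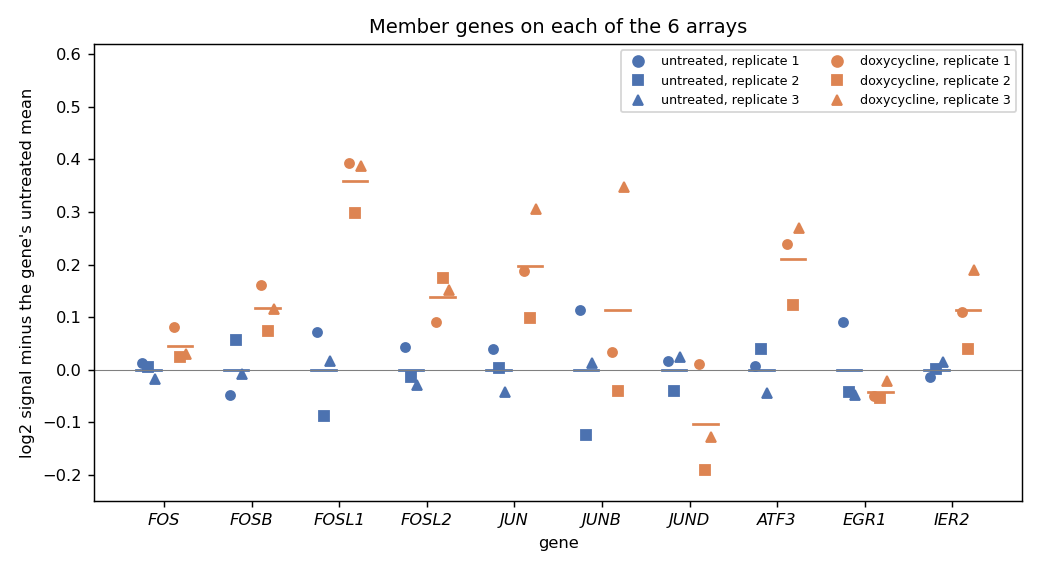
Each member's log2 signal on each array, minus that gene's mean over the 3 untreated arrays (y axis), by gene (x axis). Blue points are untreated and orange points doxycycline, circles, squares and triangles are replicates 1, 2 and 3, and horizontal lines are group means; the groups are clear of each other in 7 genes and overlap in JUNB, JUND and EGR1.

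Among the FOS proteins, FOSL1, also called FRA-1, lacks the transactivation domain of FOS and is linked to invasion of carcinoma cells. Untreated replicates 1, 2 and 3 read 7.37, 7.21 and 7.32 (log2 signal) and doxycycline replicates 1, 2 and 3 read 7.69, 7.60 and 7.69. The group means were 7.30 ± 0.081 and 7.66 ± 0.053 (SD, n = 3 each). Every treated array was above every untreated array, and the lowest treated value exceeded the highest untreated value by 0.23. The log2 change was 0.36 (SE 0.053, 95% interval 0.23 to 0.49, limma adjusted p = 0.0158). Across the alternative settings the adjusted p ranged from 0.00203 to 0.0702 and the change from 0.32 to 0.40. The call was lost without untreated replicate 3 (change 0.37, limma adjusted p = 0.0629) and without doxycycline replicate 3 (change 0.35, limma adjusted p = 0.069).

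FOSL2, or FRA-2, the closest relative of FOSL1, moved the same way by a smaller amount without passing the test. Its log2 signal was 6.64, 6.59 and 6.57 in untreated and 6.69, 6.78 and 6.75 in treated cultures. The groups were clear of each other by 0.047, and the change was 0.14 (SE 0.042, 95% interval 0.041 to 0.24, limma adjusted p = 0.102). FOSB, a strong activator that is brief in most cells and lasting as a truncated form in neurons, gave 5.19, 5.29 and 5.23 in untreated and 5.40, 5.31 and 5.35 in treated cultures. Its groups were separated by 0.018 only, with a change of 0.12 (SE 0.044, 95% interval 0.012 to 0.22, limma adjusted p = 0.178).

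FOS, the prototype of the family and the classic readout of serum stimulation, had the smallest difference between groups among the FOS genes. Its mean signal was also low, at percentile 47.7 of all genes, with FOSB at 45.1 and FOSL1 at 83.7. It gave 5.43, 5.42 and 5.40 in untreated and 5.50, 5.44 and 5.45 in treated cultures. The treated arrays were all higher, but the nearest values were 0.0098 apart. The change was 0.044 (SE 0.036, 95% interval -0.041 to 0.13, limma adjusted p = 0.532).

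JUN, the subunit that the JNK kinases phosphorylate, was higher in all treated cultures. Its log2 signal was 6.63, 6.60 and 6.55 in untreated and 6.78, 6.69 and 6.90 in treated cultures. The treated values were more spread (SD 0.10) than the untreated (SD 0.041), with replicate 3 the highest and replicate 2 the lowest. The change of 0.20 (SE 0.059, 95% interval 0.059 to 0.34) did not pass (limma adjusted p = 0.101). It did pass with array weights (change 0.27, limma adjusted p = 0.0184), a fit in which 6.74% of all genes rose, and when dim genes were left out before the fit (limma adjusted p = 0.0318), where 10.3% of those tested rose.

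JUNB and JUND act as partners that often oppose JUN in proliferation, and their groups overlapped. JUNB gave 8.48, 8.24 and 8.38 in untreated and 8.40, 8.32 and 8.71 in treated cultures. Only doxycycline replicate 3 was above all untreated arrays. The change was 0.11 (SE 0.11, 95% interval -0.14 to 0.37, limma adjusted p = 0.602), without that array it was -0.0044, and with array weights it was 0.25. JUND, which is made at a steady level in most cells and is less inducible than its relatives, gave 7.49, 7.44 and 7.50 in untreated and 7.49, 7.29 and 7.35 in treated cultures. Treated replicates 2 and 3 were the lowest values, while replicate 1 was within the untreated range. With a change of -0.10 (SE 0.058, 95% interval -0.24 to 0.033, limma adjusted p = 0.349), JUND had the lowest change of the 10.

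ATF3, a stress-induced factor that dimerises with JUN proteins and represses many of its targets, had the second largest change. Its log2 signal was 6.60, 6.63 and 6.55 in untreated and 6.83, 6.72 and 6.86 in treated cultures. All treated arrays were higher, by at least 0.084. The change was 0.21 (SE 0.051, 95% interval 0.091 to 0.33), and at a limma adjusted p of 0.0571 it did not pass. Over the 15 alternatives its adjusted p ranged from 0.0115 to 0.178, and it passed in 7 of them. Among them were repeated quantile normalization (limma adjusted p = 0.0426), median centring (limma adjusted p = 0.0478) and the fit without doxycycline replicate 2 (limma adjusted p = 0.0471). Of all genes, 3.15%, 2.74% and 1.34% rose in those fits, in that order.

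EGR1, which binds GC-rich sites and is induced through serum response elements, was not shown to differ. It gave 8.72, 8.59 and 8.58 in untreated and 8.58, 8.58 and 8.61 in treated cultures. Apart from untreated replicate 1, all arrays lay within a narrow band. The change was -0.042 (SE 0.048, 95% interval -0.16 to 0.071, limma adjusted p = 0.664), and without untreated replicate 1 it was 0.0031. IER2 gave 7.49, 7.50 and 7.51 in untreated and 7.61, 7.54 and 7.69 in treated cultures. Its treated arrays were all higher, by at least 0.025, with a change of 0.11 (SE 0.047, 95% interval 0.0021 to 0.22, limma adjusted p = 0.213). IER2 passed in 1 of 15 alternatives, with array weights (limma adjusted p = 0.0451).

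**Figure D2:**
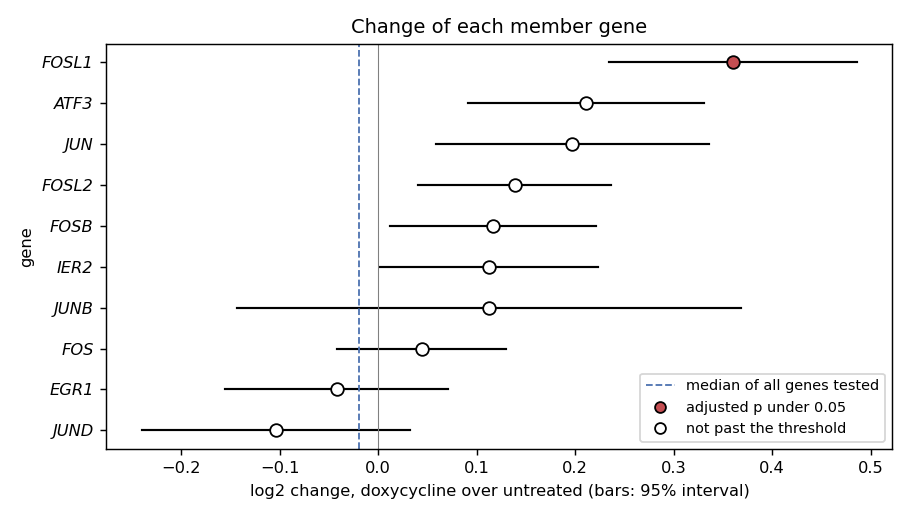
Log2 change of each member, doxycycline over untreated (x axis), with its 95% interval from limma as a bar, genes ordered by change (y axis). The filled point, FOSL1 at 0.36, is the one past the threshold, and the dashed line is the median of all genes tested, -0.019.

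The members shared some of their scatter within the treated group. Doxycycline replicate 2 was the lowest treated array for 9 of the 10, all but FOSL2, and doxycycline replicate 3 was the highest for 5, JUN, JUNB, ATF3, EGR1 and IER2. Doxycycline replicate 1 was the highest for 4, FOS, FOSB, FOSL1 and JUND. Among untreated arrays, replicate 1 was the highest for 6 of the 10. Over all genes, doxycycline replicate 2 also deviated most from the treated mean (root mean square 0.086, against 0.083 and 0.071 for doxycycline replicates 1 and 3). How often each array was lowest or highest over all genes was not counted, so this pattern is not shown to be particular to the members. The part of these array differences in the members' changes was not tested beyond leaving out each array.

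Of 17 measured factors that can also pair with AP-1 subunits, 2 rose and none fell, or 11.8% where 2.93% of all genes rose. CREB5, an ATF2 relative that pairs with JUN, gave 5.17, 5.23 and 5.19 in untreated and 5.51, 5.56 and 5.52 in treated cultures, a change of 0.33 (SE 0.037, limma adjusted p = 0.00836). This was about the size of the FOSL1 change and on arrays that did not overlap. ATF7, another ATF2 relative, rose by 0.22 (limma adjusted p = 0.0324). At an unadjusted p under 0.05 by limma, 3 of the 17 were higher (17.6%, against 9.85% of all genes) and 1 lower. The CREB5 call was lost without doxycycline replicate 3 (limma adjusted p = 0.0511) and with every probe set tested (limma adjusted p = 0.0509), and ATF7 lost its call on leaving out any array other than doxycycline replicate 1.

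More distant leucine zipper factors, the CREB, ATF and C/EBP groups, had 4 rises and no fall among 18 measured, or 22.2% where 2.93% of all genes rose. At an unadjusted p under 0.05 by limma, 6 were higher (33.3%, against 9.85% of all genes) and none lower. DBP, a clock-controlled activator, rose by 0.51 (SE 0.067), and DDIT3, the stress factor CHOP, by 0.46 (SE 0.063). CREB3L2, a membrane-bound factor of the secretory pathway, rose by 0.30 and ATF6, a sensor of unfolded protein in the endoplasmic reticulum, also by 0.30, all with limma adjusted p between 0.00935 and 0.0129. The other 14 did not pass, and the median of the list was 0.012. Without doxycycline replicate 3 or without untreated replicate 3 all 4 calls were lost, and that of ATF6 also without untreated replicate 1. All 4 were lost with every probe set tested (limma adjusted p from 0.0553 to 0.0701).

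In the EGR family and its corepressors, none of 5 measured genes passed limma's test. At an unadjusted p under 0.05 by limma, 1 was higher (20%, against 9.85% of all genes) and 1 lower. EGR3, a relative of EGR1 induced by the same signals, had lower values in all treated cultures (change -0.12, limma adjusted p = 0.185), and NAB1, a corepressor that binds EGR proteins, had higher ones (0.10, limma adjusted p = 0.187). Of 9 measured serum response, ternary complex and MEF2 factors, 1 rose and none fell, or 11.1% where 2.93% of all genes rose. It was MEF2D (change 0.22, limma adjusted p = 0.0378). At an unadjusted p under 0.05 by limma, 2 were higher (22.2%, against 9.85% of all genes) and 1 lower. ELK3, an ETS factor that binds beside serum response factor, did not pass (0.19, limma adjusted p = 0.0698). The MEF2D call was lost on leaving out any of the 6 arrays.

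Of 20 MAP kinase pathway kinases, 1 fell and none rose, or 5% where 3.27% of all genes fell. At an unadjusted p under 0.05 by limma, 2 were higher (10%, against 9.85% of all genes) and 1 lower. The means of 15 of the 20 were lower in treated cultures, as were those of 13050 of all 22411 genes. The median change was -0.065, against -0.019 over all genes. RPS6KA1, the ERK-activated kinase RSK1, fell by 0.25 on the log2 scale (SE 0.055, limma adjusted p = 0.0447). This call too was lost on leaving out any of the 6 arrays. RPS6KA5, or MSK1, which phosphorylates histone H3 at immediate early genes, had a change of 0.19 (limma adjusted p = 0.0587). None of 6 measured genes of JUN and FOS turnover and coactivation passed limma's test. At an unadjusted p under 0.05 by limma, 2 were higher (33.3%, against 9.85% of all genes) and none lower. The closest was FBXW7, the ubiquitin ligase adaptor for JUN (0.16, limma adjusted p = 0.0569), followed by ITCH, another ligase for JUN (0.12, limma adjusted p = 0.15).

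Beyond the 10 factors, 6 of 39 other immediate early genes rose and none fell, or 15.4% where 2.93% of all genes rose. Treated arrays all lay above the untreated ones in 15 of the 39 (38.5%, against 12.5% of all genes). They all lay below in 6 of the 39 (15.4%, against 16.7% of all genes). At an unadjusted p under 0.05 by limma, 13 were higher (33.3%, against 9.85% of all genes) and 2 lower. The median change was 0.067. The largest change was in ZFP36, whose protein binds AU-rich elements and speeds the decay of mRNAs such as that of FOS, at 8.66, 8.46 and 8.50 in untreated and 9.25, 9.31 and 9.31 in treated cultures (change 0.75, SE 0.059, limma adjusted p = 0.00376). That change exceeds the one of FOSL1, and its groups lay 0.59 apart. DUSP5, a phosphatase that inactivates ERK in the nucleus, rose by 0.57 (SE 0.054). The polo-like kinases PLK2 and PLK3 rose by 0.46 and 0.30. The calls of ZFP36 and DUSP5 held with each array left out, and those of PLK2 and PLK3 were lost without untreated replicate 3 or doxycycline replicate 3 (that of PLK3 also without untreated replicate 2).

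Genes known to be driven by AP-1 in other systems were looked at as a list. Of 27 measured, 2 rose and none fell, 7.41% where 2.93% of all genes rose. At an unadjusted p under 0.05 by limma, 4 were higher (14.8%, against 9.85% of all genes) and 2 lower. The median was -0.017, against -0.019 over all genes. Both that rose belong to the urokinase system, which activates plasmin at the cell surface. PLAU, urokinase itself, gave 7.60, 7.50 and 7.60 in untreated and 8.03, 7.93 and 8.03 in treated cultures. Every treated array was higher, by at least 0.33, and the change was 0.43 (SE 0.048, limma adjusted p = 0.00838). PLAUR, its receptor, rose by 0.36 (SE 0.052, limma adjusted p = 0.0147). The PLAU call was lost without doxycycline replicate 3 (limma adjusted p = 0.0511), and the PLAUR call without that array, untreated replicate 1 or untreated replicate 2 (limma adjusted p of up to 0.0652).

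Of 14 measured genes known as EGR1 targets, 1 rose and none fell, or 7.14% where 2.93% of all genes rose. It was GDF15, a secreted stress cytokine (change 0.47, SE 0.085, limma adjusted p = 0.0267). At an unadjusted p under 0.05 by limma, 2 were higher (14.3%, against 9.85% of all genes) and 2 lower, where 2856 of all 22411 genes were lower. THBS1, thrombospondin, was lower in all treated cultures but did not pass (-0.17, limma adjusted p = 0.0543). The GDF15 call was lost on leaving out any array other than doxycycline replicate 2. No gene of these lists is itself among the 10.

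**Figure D3:**
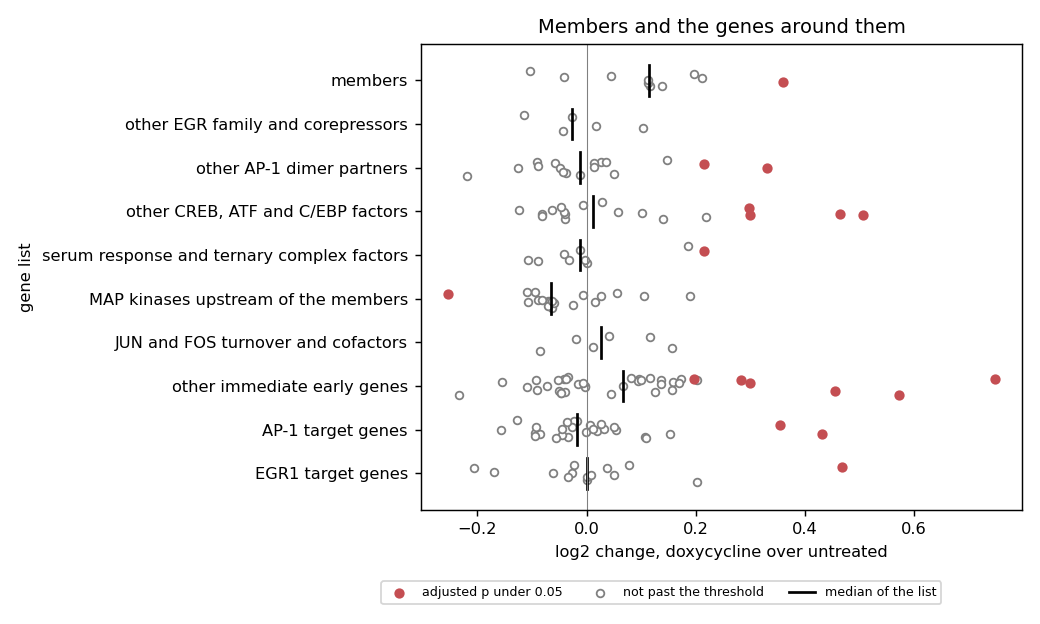
Log2 change, doxycycline over untreated (x axis), of each measured gene in the 10 member genes and in the lists around them (y axis). Filled points had a limma adjusted p under 0.05 and black bars are list medians; the farthest filled point is ZFP36 at 0.75, and the one filled point on the left is RPS6KA1 at -0.25.

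The genes whose signals followed FOSL1 most closely over the 6 arrays were SEMA7A, a membrane-anchored semaphorin (Pearson r = 0.998, change 0.25), YIPF2, a Golgi membrane protein (r = 0.997, change 0.29), and AP1G2, a subunit of a clathrin adaptor (r = 0.996, change 0.29). They were searched among the 11206 genes at or above the median level. With 6 arrays in 2 groups such values are common, and 634 of these genes had r over 0.9. AP1G2 shares its letters with the AP-1 factor by name alone.

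As a check of the hairpin, SLBP fell by 0.77 on the log2 scale (limma adjusted p = 0.00322). All 10 member genes had mean signals above 4.52, the 95th percentile of 359 olfactory receptor genes, which colon cells are not known to use, and their means over the arrays ran from 5.29 to 8.61. Among markers of the labelled tissue, all 7 epithelial genes were above that level and the keratins reached 10.9, though CDX2 and VIL1, the intestinal ones, were near it at 5.04 and 4.56. All 4 blood markers measured, PTPRC among them, were under it, while 2 of 3 endothelial markers (CDH5 and VWF, at most 4.59, close to VIL1) and 2 of 4 fibroblast markers (COL1A1 at 6.32 and COL1A2) were above it. None of these markers had a limma adjusted p under 0.05, with 1 epithelial and 1 fibroblast gene higher at an unadjusted p under 0.05. In RNA from whole cultures, a change in RNA per cell and a change in the share of cells that express a gene cannot be told apart.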

How the data were processed

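The deposited values are log2 signals, 1 per probe set and array, made by the authors with RMA per the submitters' processing notes; neither version, genome build nor annotation is given in the sources used here. The 70523 probe sets of Affymetrix arrays were named through the platform's annotation, and 306 older symbols were updated with RefSeq's gene table. Genes were taken from the 23781 probe sets with 1 symbol, keeping the brightest where a gene had several; each member had 1. Cultures are described as independent, so p-values include the spread between cultures, and 3 arrays per group limit the precision.

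Differences over all 22411 genes came from limma 3.58.1 (R 4.3.3), with lmFit and eBayes and treatment as the only term and Benjamini-Hochberg adjustment over all genes. The fit was tested on simulated data, where it recovered 62.7% of log2 changes of 0.3, 89.6% of 0.5 and 100% of 1. Of its 178 calls, 10 were of unchanged genes. Smaller changes, such as those of all members but FOSL1, were not simulated. The noise was drawn separately for each gene and array, so the simulation cannot show the effect of differences that genes share within an array. The members and lists were chosen with earlier results of these data known. From each list the text names the genes with the lowest adjusted p (a pair per list) and up to 2 further with the largest changes past the threshold. Alternatives were repeated quantile normalization, median centring, background subtraction (5th percentile, floor 16), dim genes left out, trend and robust settings, array weights, mean of probe sets, every probe set tested, a replicate block and each array left out.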

Additional observations from a re-analysis of the deposited data

How the results depend on the processing

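Of 148 refits of the 10 members, 131 kept both direction and side of the threshold, 12 gained a call, 3 lost one and 2 changed sign. FOSL1 passed in 12 of 15 alternatives and was lost when every probe set was tested (0.36, limma adjusted p = 0.0702) and in both fits without a replicate 3, its change lying between 0.32 and 0.40 with arrays left out. Against 1 member called higher, 2 were (FOSL1 and ATF3) with repeated quantile normalization, median centring, background subtraction, and trend and robust settings, 4 of the 8 then tested with dim genes left out (FOSL2 and JUN in addition), 5 with array weights (IER2 too), 0 with every probe set tested, and 0 to 2 with arrays left out. Of all genes tested, 10.3% rose with dim genes left out and 6.74% with array weights, against 2.93% in the reported fit. Repeated quantile normalization gave 3.15%, median centring 2.74%, background subtraction 6.46% and trend and robust settings 4.23%. With every probe set tested 0.264% of probe sets rose, and with arrays left out 0.281% to 2.5% of genes. No alternative called a member lower. With arrays left out, JUNB ranged from -0.0044 to 0.19 and EGR1 from -0.066 to 0.0031. The median change of the members ranged from 0.096 to 0.15 over all alternatives.

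In the reported fit 1388 of 22411 genes were called. Background subtraction called 2162 of the 15864 genes then tested, and the fit with dim genes left out 2569 of 11206. Of 22411 genes, 3225 were called with array weights, 331 with the replicate block and 132 to 1098 with arrays left out. With every probe set tested, 344 of 70523 probe sets, most without a gene name, were called. What caused these differences was not tested. Of 17 genes called in the other lists, 15 lost the call without doxycycline replicate 3, 14 with every probe set tested and 12 without untreated replicate 3. Deviations of same-numbered arrays correlated at 0.030, -0.00056 and -0.016, so the numbers were not taken as pairs; with the replicate block FOSL1 kept its call (limma adjusted p = 0.0462), while 8 of those 17 list genes lost theirs: ATF7, DBP, MEF2D, RPS6KA1, PLK3, GDF15, and NR4A2 and GADD45B, which the naming rule left out and which are named here after their values were seen.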
